A study of Mus musculus with 6 samples.

Results

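Plac8, Kbtbd11 and Pgf are 3 of the 20950 entries of an FPKM table made from C2C12, a line of mouse myoblasts that forms myotubes in low serum. They were selected on their measured values, as genes with large rises in each of the 2 libraries of 0.2% FBS + exosome over the 0.2% FBS library, so their change in that comparison is a description and was not tested. The study asked how exosomes, small vesicles isolated from fetal bovine serum (FBS), act on differentiating myogenic cells. Total RNA of whole cultures was sequenced as stranded mRNA libraries of 75 bp single-end reads, in 6 libraries of 5 conditions. The conditions were 10% FBS (growing cells), 2% HS (horse serum), 2% HS + exosome and 0.2% FBS with 1 library each, and 0.2% FBS + exosome with 2 libraries, called replicates 1 and 2. All are the same cell line in DMEM, exosomes were added in the amount that 10% FBS contains, and the 4 differentiation media were given after growth in 10% FBS. The 2 replicates are separate samples in the labels, but the labels do not say whether they were separate cultures. The paper speaks of biological replicates and of separate exosome preparations in general, without tying either to these libraries, so their spread may be technical.

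Plac8 encodes a small cysteine-rich protein first described in placenta, known for a role in brown fat differentiation upstream of the transcription factor C/EBP beta. Kbtbd11 encodes a protein with a BTB domain and Kelch repeats, a build shared by substrate adaptors of the cullin 3 ubiquitin ligase. Such adaptors hold a target protein with the Kelch repeats and bind cullin 3 with the BTB domain, and several of them are needed for muscle structure. Pgf encodes placental growth factor, a secreted ligand of the VEGF family that binds the receptor Flt1 and the neuropilin co-receptors and is known for its part in the growth of blood vessels.

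The annotation (GENCODE vM21, mm10) places Plac8 on chromosome 5 from 100553725 to 100572245 on the minus strand, with 3 coding transcripts that each have 112 codons. Pgf lies on chromosome 12 from 85166635 to 85177790, also on the minus strand, with 2 coding transcripts of 162 and 158 codons. Kbtbd11 lies on chromosome 8 from 15011025 to 15033333 on the plus strand, and its coding transcript has 2 exons, 6973 bases and 633 codons. RefSeq's promoter table for GRCm38.p6, the assembly behind mm10, matched Plac8 and Pgf, with 2 start sites each. The promoter of the outermost start site is shown for both, from 250 bases before to 50 bases after the start, because these genes were chosen for a rise in the same libraries and the stretches show what their starts share and do not share. Capitals mark a CCAAT box or a GC box on either strand.
Plac8, chr5:100572156-100572455, minus strand: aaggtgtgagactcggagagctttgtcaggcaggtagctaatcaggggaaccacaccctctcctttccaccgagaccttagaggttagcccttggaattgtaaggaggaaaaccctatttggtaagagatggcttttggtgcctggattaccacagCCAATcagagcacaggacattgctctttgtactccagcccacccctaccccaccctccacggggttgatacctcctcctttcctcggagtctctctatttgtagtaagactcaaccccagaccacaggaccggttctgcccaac
Pgf, chr12:85177264-85177563, minus strand: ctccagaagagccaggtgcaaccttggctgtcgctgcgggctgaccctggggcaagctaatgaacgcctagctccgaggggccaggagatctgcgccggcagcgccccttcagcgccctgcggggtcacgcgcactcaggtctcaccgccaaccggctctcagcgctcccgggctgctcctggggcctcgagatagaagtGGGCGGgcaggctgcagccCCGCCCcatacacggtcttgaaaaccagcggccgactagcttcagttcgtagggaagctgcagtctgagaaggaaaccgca

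The Plac8 stretch had 1 CCAAT box, which begins at position −94 from the start, a motif found in 37.4% of all 32817 promoters of this length. The Pgf stretch had 2 GC boxes (GGGCGG), which begin at −50 and −31, a motif of 35.6% of promoters. The Pgf stretch was 66.0% G and C with 23 CG pairs, and the Plac8 stretch 52.7% with 5, where the medians over all promoters were 52.7% and 7 CG pairs. An E-box (CANNTG), the kind of site that myogenic factors bind, was found once in the Pgf stretch, at −238, and in 72.3% of all promoters. The letters of a TATA box (TATAAA, 13.6% of promoters), an AP-1 site (TGACTCA, 5.2%), a hypoxia response core (ACGTG, 19.6%), a metal response core (TGCGCNC or TGCACNC, 25.7%) and a C/EBP site (TTGCNNAA, 10.8%) were in neither stretch. All motifs were read on both strands. The inner start site of Plac8 held a hypoxia response core at −144, a C/EBP site at −12, E-boxes at −229 and −91 and a CCAAT box at 14, and the inner start site of Pgf held E-boxes at −92 and 20. A match of letters is a description of the sequence and not a measured binding site.

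Plac8 was at 8.36 FPKM in 10% FBS, 4.53 in 2% HS, 4.09 in 2% HS + exosome, and 1.80 in 0.2% FBS. In the 0.2% FBS + exosome libraries it reached 10.2 (replicate 1) and 20.7 FPKM (replicate 2). Replicate 2 had 2.03 times the Plac8 of replicate 1, but even the lower of them was above the other 4 libraries. Kbtbd11 was at 11.8 FPKM in 10% FBS, 6.71 in 2% HS, 4.75 in 2% HS + exosome, 3.41 in 0.2% FBS, and 17.31 and 17.34 FPKM in the exosome libraries of 0.2% FBS. Those 2 libraries were almost the same for Kbtbd11 and stood above all others. Pgf, the most abundant of the 3 genes, was at 25.7 FPKM in 10% FBS, 16.2 in 2% HS, 14.3 in 2% HS + exosome, 10.8 in 0.2% FBS, and 35.6 and 36.2 FPKM in the exosome libraries of 0.2% FBS. FPKM divides the reads of a gene by transcript length and library depth, so these levels can be compared between genes.

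**Figure D1:**
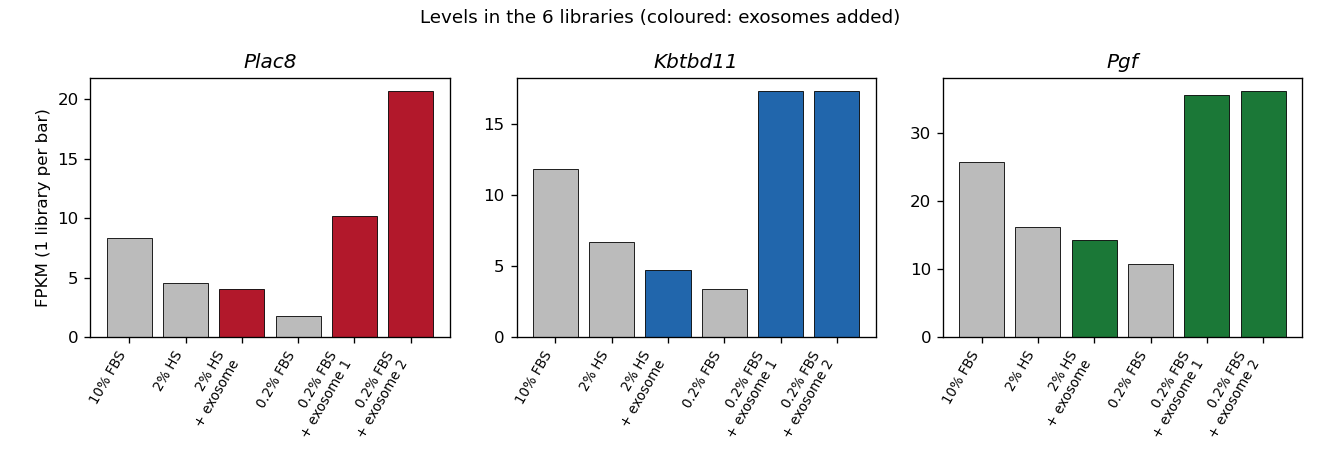
Bars give the FPKM value of each of the 6 libraries for the 3 genes, 1 library per bar, with coloured bars where exosomes were added. In each gene 0.2% FBS has the lowest bar and the 2 exosome libraries of that medium the highest, such as 10.8 against 35.6 and 36.2 FPKM for Pgf.

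Compared with 0.2% FBS, the level with exosomes was 5.65 and 11.5 times as high for Plac8, 5.07 and 5.08 times for Kbtbd11, and 3.31 and 3.37 times for Pgf, in replicates 1 and 2. On the scale of log2(FPKM + 1), which understates the change of low values, the mean difference was 2.47 for Plac8 (SD 0.68, n = 2), 2.05 for Kbtbd11 (SD 0.0018, n = 2) and 1.65 for Pgf (SD 0.017, n = 2). These values chose the genes. All 3 passed the study's threshold of a log2 difference above 1 in each exosome library, as did 96 entries (0.458%) of the table, while 175 (0.835%) were below −1 in each. With the 75th percentile of expressed genes made equal across libraries, 47 entries passed as higher and 234 as lower, so that 16.7% of the calls were higher in place of 35.4%, and the 3 genes were among the 47. By mean difference Plac8 ranked 2, between Fos (2.90) and Hspa1b (2.28), Kbtbd11 ranked 8, between Slc5a3 (2.08) and Fosb (1.95), and Pgf ranked 21, between Rgs2 (1.70) and Mmd (1.64).

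Several genes ranked next to them were less even between the replicates. Fos differed by 1.16 in replicate 1 and 4.65 in replicate 2, Hspa1b by 3.42 and 1.14, and Slc5a3 by 2.74 and 1.41. Over the 96 entries past the threshold the median size of the difference between replicates was 0.18, and 68 of them were higher in replicate 2. Kbtbd11, with a gap of 0.0026, had the smallest gap of all 96, Pgf (0.024) had 9 entries with a smaller gap, and Plac8 (0.96) had 84. This evenness depended on the scale, since the gaps of Kbtbd11, Pgf and Plac8 were 0.044, 0.025 and 0.91 after scaling to the 75th percentile and 0.46, 0.45 and 0.49 after scaling to Rpl13a. The 0.2% FBS control has 1 library, so the gaps cover the exosome libraries only.

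The order of the levels was the same in all 3 genes, with 0.2% FBS lowest, then 2% HS + exosome, 2% HS, 10% FBS, and 0.2% FBS + exosome highest. Of the 10731 entries with a mean of at least 1 FPKM, 320 (2.98%) had this order, and of the 96 entries past the threshold 26 (27.1%) had it. The place of 0.2% FBS under 0.2% FBS + exosome was fixed by the choice of the genes. That choice also favours the lowest place for 0.2% FBS and the highest for 0.2% FBS + exosome. The share over all entries therefore does not measure how unusual the shared order is. The order of the conditions also held after scaling to the 75th percentile and after scaling to Rpl13a, the reference gene of the study's RT-qPCR. Over all 10731 entries, the 95th percentile of the difference between replicates 1 and 2 was 0.51 on the log2 scale. Between neighbours in the order, the step from 2% HS + exosome to 2% HS was under that size in each gene, at 0.12 for Plac8, 0.42 for Kbtbd11 and 0.17 for Pgf. The step from 0.2% FBS to 2% HS + exosome was 0.86 for Plac8, but 0.38 for Kbtbd11 and 0.38 for Pgf, which is under it. For Plac8 its own gap between the replicates, 0.96, was larger than any of its steps between conditions. From 2% HS to 10% FBS the steps of all 3 were above it as deposited, at 0.76, 0.73 and 0.64, but not after scaling to Rpl13a, where 2% HS minus 10% FBS was −0.27, −0.22 and −0.090. From 10% FBS to the lower exosome library the step was 0.26 for Plac8, 0.46 for Pgf and 0.51 for Kbtbd11, the last only just above that size.

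The differentiation media without exosomes were compared with growth in 10% FBS. The 2% HS medium differs from it in the species of the serum as well as in its amount. In 2% HS, Plac8 stood at 0.542 of its 10% FBS level, Kbtbd11 at 0.568 and Pgf at 0.630. None of these falls passed the log2 threshold of −1, which 56 entries (0.267%) did, with 198 (0.945%) above 1. In limma, a linear model fitted across all genes with 1 mean per condition, the difference was −0.76 for Plac8 (SE 0.38, adjusted p = 0.355), −0.73 for Kbtbd11 (SE 0.18, adjusted p = 0.124) and −0.64 for Pgf (SE 0.18, adjusted p = 0.149). That fit called 55 of 10731 genes (0.513%), and 3 after scaling to the 75th percentile, 1 without the mean-variance trend and 0 without the filter on low values (1967 at an unadjusted p under 0.05). It takes its spread from the 2 exosome libraries of 0.2% FBS, which chose the genes, and assumes that the single libraries vary alike.

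In 0.2% FBS the levels were lower still, at 0.216 of 10% FBS for Plac8, 0.288 for Kbtbd11 and 0.418 for Pgf. The log2 differences were −1.74, −1.54 and −1.18, and 77 entries (0.368%) were below −1 in that comparison, with 195 (0.931%) above 1. This comparison shares the 0.2% FBS library with the values that chose the genes, and a low value in that library moves both, so nothing is read from it. With exosomes in 0.2% FBS the levels were above those of growing cells, by 1.22 and 2.48 times for Plac8, 1.46 and 1.47 times for Kbtbd11, and 1.39 and 1.41 times for Pgf. Among the 96 entries past the threshold, 73 (76.0%) were above all other libraries in both exosome libraries, as these 3 genes were. The exosome libraries helped to choose the genes, so high values in them favour both of these results. Nothing is read from either.

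Exosomes were also added in 2% HS, where the level with exosomes was 0.903 of that without for Plac8, 0.708 for Kbtbd11 and 0.885 for Pgf, from 1 library of each kind. Past the threshold in that medium were 39 higher (0.186%) and 33 lower (0.158%) entries, and none of the 3 genes was among them. In the limma fit the difference was −0.12 for Plac8 (SE 0.38), −0.42 for Kbtbd11 (SE 0.18) and −0.17 for Pgf (SE 0.18), each with an adjusted p of 1.00. The means of this comparison come from libraries that did not choose the genes, but its SE comes from the exosome libraries of 0.2% FBS, which did, so the test is not fully independent of the choice. The fit called 9 genes (0.0839%). No rise with exosomes was seen for the 3 genes in 2% HS, and of the 96 entries past the threshold in 0.2% FBS, 52 (54.2%) were lower in the 2% HS library with exosomes, where 58.7% of all expressed entries were. Medium and single culture cannot be told apart here.

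**Figure D2:**
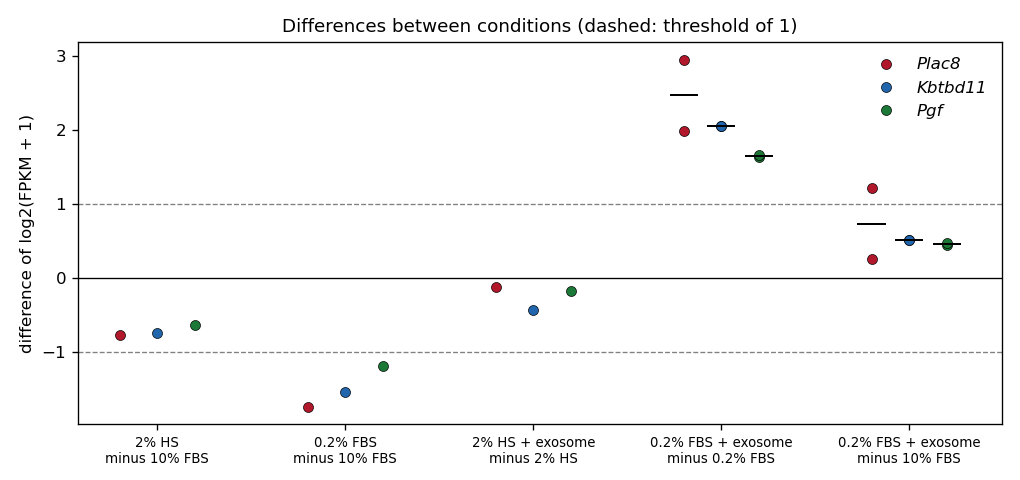
Points give differences of log2(FPKM + 1) between conditions, 1 point per library on the higher side of the contrast, with a short line at the mean where 2 exosome libraries exist and dashed lines at the threshold. The 3 genes lie below 0 for both reduced sera and for exosomes in 2% HS, and above 1 only for exosomes in 0.2% FBS, apart from Plac8 in replicate 2 against 10% FBS (1.21).

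Depth was estimated from the spacing of low FPKM values, since the table holds no counts. It gave about 33700000 to 39600000 reads per library. With these estimates the Plac8 value in 0.2% FBS rests on 36 to 68 reads, depending on which coding transcript carried them, and those in the exosome libraries on 193 to 367 and 376 to 715. For Kbtbd11 the lowest estimate was 846 reads and for Pgf 544, both in 0.2% FBS, so the fold of Plac8 is the least precise of the 3. Of the stretches of 75 bases in the longest coding transcripts, none of the 1150 of Plac8 and none of the 2006 of Pgf occurred in a transcript of another gene. For Kbtbd11, 1701 of 6899 (24.7%) also occur in Gm37844, an annotated transcript on the opposite strand of the same place, and a second antisense gene, 5830468F06Rik, overlaps it. The strand setting of the FPKM calculation is not given in the sources used here, so Kbtbd11 may hold antisense reads, which was not tested.

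The cultures carried the markers of muscle cells. All 8 muscle markers were expressed in every library, and 5 endothelial markers were at most 0.163 FPKM, with Emcn and Tie1 at 0 throughout. Of 5 leukocyte and macrophage markers only Cd68 exceeded 1 FPKM, at 1.19 to 2.00, and 4 adipocyte markers were at most 0.0326 FPKM. Among 4 trophoblast markers, chosen because Plac8 and Pgf are named for placenta, Prl3d1 and Tpbpa were at 0 in every library and Prl2c2 was at 0.905 to 6.20 FPKM, with the highest value in replicate 1. The summed level of the muscle markers was 4743 FPKM in 10% FBS, 9380 in 2% HS, 8586 in 2% HS + exosome, 10106 in 0.2% FBS, and 4724 and 3588 in the exosome libraries of 0.2% FBS. It was highest in the library where the 3 genes were lowest, and its part in their levels was not tested. In RNA of whole cultures, fewer cells of a type and less RNA per cell cannot be told apart. Myf5, a factor of undifferentiated myoblasts, was the 1 muscle marker that was higher in each exosome library, at 5.39 FPKM in 0.2% FBS and 10.1 and 12.9 with exosomes.

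Pgf was set beside the other ligands and receptors of the VEGF and PDGF families. Of 16 such genes 13 were expressed at a mean of at least 1 FPKM, and 10 of these (76.9%) were higher in each exosome library of 0.2% FBS, where 55.2% of all expressed entries were. None passed the log2 threshold of 1 in both libraries, and the limma fit called 6 of the 13 higher and none lower, where it called 8.2% of all genes higher and 4.32% lower. Their median difference was 0.52, against 0.14 over all expressed entries. After scaling to Rpl13a it was 0.28 against −0.086, with 8 of the 13 higher in each library, beside 2580 of all 10731 entries. The control has 1 library and the spread of the 2 exosome libraries may be technical, which holds for every limma call of list genes given here, and without the filter on low values the same fit, then over 16450 genes, called none, with 3121 at an unadjusted p under 0.05.

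Among the ligands, Vegfb rose from 27.7 FPKM in 0.2% FBS to 50.5 and 53.8 with exosomes (adjusted p = 0.0178 in limma). Vegfc, a ligand of lymphatic vessel growth, rose from 4.96 to 9.66 and 11.04 FPKM (adjusted p = 0.0174). Vegfd, listed as Figf, rose from 6.62 to 13.2 and 14.0 FPKM (adjusted p = 0.0141). These ligands reached 1.82 to 2.23 times their level in 0.2% FBS. Vegfa, the main ligand of vessel growth, stood at 54.2 FPKM in 0.2% FBS, with 60.9 and 50.5 when exosomes were added, and it did not pass the test. It had its highest level, 85.0 FPKM, in 2% HS + exosome, against 50.3 in 2% HS. Exosomes in 2% HS, with single libraries, gave log2 differences of −0.35 for Vegfb, −0.30 for Vegfc and 0.27 for Vegfd. Of the 13 expressed genes of the list, 8 (61.5%) were lower there, where 58.7% of all expressed entries were. The median difference of the 13 was −0.19, against −0.036 over all expressed entries.

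Of the receptors that bind Pgf, Flt1 was nearly absent, at 0.165 to 0.534 FPKM over the 6 libraries. Kdr, the main receptor of Vegfa, was at 0 in every library, and Flt4 was at most 0.00480 FPKM. The neuropilins were well expressed. Nrp1 rose from 14.0 FPKM in 0.2% FBS to 22.5 and 22.8 with exosomes (adjusted p = 0.0328 in limma) and Nrp2 from 19.3 to 37.5 and 35.7 (adjusted p = 0.0160). Pdgfrb, a receptor of PDGF ligands, rose from 24.8 to 40.7 and 39.3 FPKM (adjusted p = 0.0323). In 2% HS, with single libraries, 3 of the 5 expressed receptors of the list were lower with exosomes. These were Nrp1, Nrp2 and Pdgfrb, with log2 differences of −0.19, −0.20 and −0.48, sizes below the 95th percentile of the difference between replicates (0.51). After scaling to the 75th percentile, Nrp1 and Pdgfrb no longer passed and the other 4 did.

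**Figure D3:**
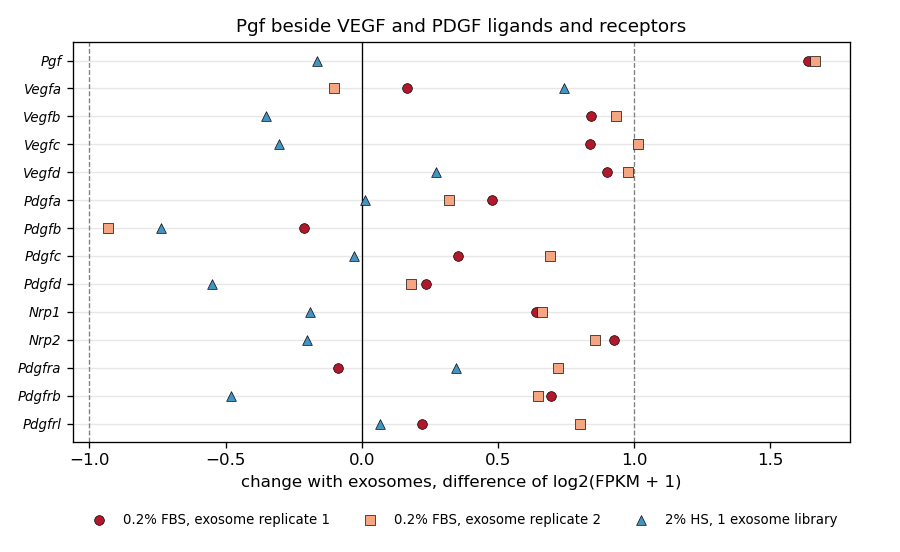
Points give the difference of log2(FPKM + 1) with exosomes for Pgf and the 13 expressed genes of the VEGF and PDGF list, as circles and squares for replicates 1 and 2 in 0.2% FBS and triangles for 2% HS, with dashed lines at the threshold. Pgf lies at 1.64 and 1.66, the values that chose it, and Vegfb, Vegfc, Vegfd and Nrp2 lie close to the line at 1.

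Kbtbd11 was set beside 26 BTB-Kelch proteins and parts of the cullin 3 ligase, of which 23 were expressed. No other member of this list passed the threshold as higher, 4 passed as lower in each exosome library of 0.2% FBS, and limma called 5 lower and none higher. Over all expressed entries 0.895% passed as higher and 1.61% as lower, and limma called 8.2% higher and 4.32% lower. The median difference was 0.05, against 0.14 over all expressed entries. The 4 were Klhl13, Klhl30, Klhl40 and Klhl41, and the fifth call was Klhl31. Klhl40 and Klhl41 are muscle proteins of the thin filament whose loss causes nemaline myopathy. Klhl41 fell from 187 FPKM in 0.2% FBS to 72.1 and 61.9 with exosomes (adjusted p = 0.00862 in limma), and Klhl40 from 40.6 to 17.7 and 13.3 (adjusted p = 0.00888). Klhl13 fell from 17.6 to 5.05 and 2.60 FPKM (adjusted p = 0.00813).

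Of the 5 other expressed Kbtbd genes, 2 were higher and 3 lower in each exosome library of 0.2% FBS. Kbtbd2 had 8.48 FPKM in 0.2% FBS against 9.51 and 10.1 with exosomes, and Kbtbd4 had 9.91 against 12.003 and 12.08. The lower genes were near 1 FPKM, with Kbtbd8 at 1.23 FPKM against 0.794 and 0.444, Kbtbd3 at 1.35 against 1.23 and 1.21, and Kbtbd7 at 1.62 against 1.51 and 1.22. Cul3, the scaffold of the ligase, was at 49.9 FPKM against 42.9 and 42.3, and Rbx1, its RING subunit, at 68.6 against 71.3 and 83.5. None of these 7 passed the limma test. The counts of genes higher and lower in this list depended on the scale, with 11 higher and 11 lower in each exosome library as deposited, 6 and 12 after scaling to the 75th percentile, and 1 and 12 after scaling to Rpl13a. Over all 10731 expressed entries the counts shifted too, from 5924 higher and 2956 lower to 4391 and 4458 and to 2580 and 4319. The 5 limma calls were the same under the 75th percentile scaling, and none was made without the filter on low values.

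**Figure D4:**
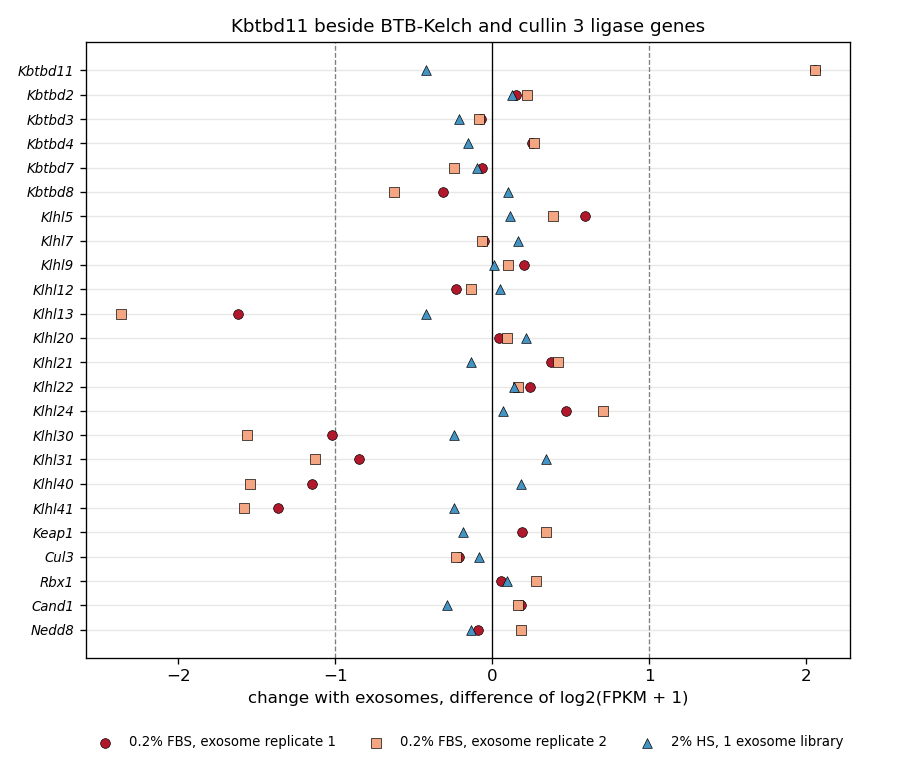
Points give the difference of log2(FPKM + 1) with exosomes for Kbtbd11 and the 23 expressed genes of the BTB-Kelch and cullin 3 list, as circles and squares for replicates 1 and 2 in 0.2% FBS and triangles for 2% HS. Kbtbd11 lies at 2.05 and 2.06 in 0.2% FBS, Klhl13 at −1.62 and −2.37, and the triangles of all genes lie inside the dashed lines at −1 and 1.

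Genes with a known tie to Plac8 or Kbtbd11 were described in the same libraries, beside the 8.2% of all genes that limma called higher and the 4.32% it called lower. Cebpb, the factor downstream of Plac8 in brown fat cells, had 32.1 FPKM in 0.2% FBS against 45.4 and 38.3 with exosomes, and did not pass the test. Cebpa was at 2.08 against 3.76 and 7.19 FPKM, with a difference above 1 in replicate 2 only (1.41). Of 11 expressed C/EBP and adipogenic factors, limma called none higher (Cebpa with a pseudocount of 0.1) and Klf5 lower, from 39.8 FPKM to 22.8 and 19.6 (adjusted p = 0.0195). By any amount, 8 of the 11 (72.7%) were higher and 1 (9.09%) lower in each exosome library, where 55.2% and 27.5% of all expressed entries were. After scaling to Rpl13a 3 were higher and 3 lower, beside 2580 and 4319 of all 10731 entries. Pparg, the main regulator of fat cell formation, was at 1.88 to 3.06 FPKM in all libraries, and Fabp4, its target, was at most 0.336. The other genes with a PLAC8 domain on the list, Plac8l1 and Cnfn, were at 0 in every library. Nfatc1, a factor that Kbtbd11 is known to restrain in osteoclasts, had 2.90 FPKM in 0.2% FBS against 2.38 and 3.06 with exosomes. Of 10 expressed NFAT and calcineurin genes, Rcan2 alone was called, from 0.852 to 2.13 and 3.90 FPKM (adjusted p = 0.0367 in limma). It was not called after scaling to the 75th percentile or without the mean-variance trend.

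Pgf is known to respond to low oxygen and to metals in other cells, so both responses were described. Of 18 expressed genes of the hypoxia response, 9 (50%) were higher and 5 (27.8%) lower in each exosome library, where 55.2% and 27.5% of all expressed entries were. After scaling to Rpl13a 4 were higher and 6 lower, beside 2580 and 4319 of all 10731 entries. In this list limma called Ndrg1 and Ddit4 higher and none lower, 2 of 18 beside 8.2% of all genes called higher. Ndrg1 rose from 24.7 FPKM to 48.8 and 47.4 (adjusted p = 0.0149), and Ddit4 from 23.8 to 36.1 and 49.5 (adjusted p = 0.0424). The glycolytic targets Ldha and Pgk1 were at 558 and 501 FPKM in 0.2% FBS, and at 489 and 435 in replicate 1 and 527 and 468 in replicate 2. Of 7 expressed metal response genes, 3 (42.9%) were higher and 3 (42.9%) lower in each exosome library. Only Mt1, a metallothionein, was called in limma, beside the same 8.2%, from 130 FPKM to 238 and 366 (adjusted p = 0.0386). Mt2, another metallothionein, was at 91.8 FPKM against 120 and 219 and did not pass. Slc30a1, a zinc exporter that zinc induces, was at 6.33 against 4.32 and 4.19 FPKM. After scaling to the 75th percentile Ddit4 and Mt1 were no longer called, and Higd1a of the first list and Slc30a1 of the second were called lower. Without the mean-variance trend Ddit4 was not called, and Ndrg1 and Mt1 were.

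The genes most like each member were named by Pearson r of log2(FPKM + 1) over the 6 libraries, among expressed genes with an SD of at least 0.5 of the member's. Kbtbd11 and Pgf were most like each other, with r = 0.996, while Plac8 had r = 0.944 with Kbtbd11 and 0.953 with Pgf. The genes most like Plac8, all above both other members, were Tspan7 (0.995), Cthrc1 (0.987), Vcam1 (0.984), Nt5dc2 (0.982) and Adora2b (0.981), which share with it the higher value in replicate 2. After each other, Kbtbd11 was most like Lrrc45 (0.993), Plscr1 (0.989), Mgat3 (0.983) and Mmd (0.982), and Pgf most like Atp6v1a (0.995), Lrrc45 (0.993), Cers2 (0.991) and Ccdc120 (0.991). The 6 points share libraries and depth, and with so few of them the coefficients describe the libraries only. The members were chosen for a rise between libraries that are among these 6. That choice favours high values of r between members, so no likeness beyond it is read from them.

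Genes near the members on the chromosome were described for the same libraries. Of 18 expressed genes with a start site within 250 kb of a member's, none passed the threshold as higher in each exosome library and 1 as lower, where 0.895% and 1.61% of all expressed entries did. By any amount 9 were higher and 7 lower in each library, beside 55.2% and 27.5% of all expressed entries. The lower gene was Myom2, a protein of the M-band of the sarcomere, which starts 46.6 kb beyond Kbtbd11 and fell from 262 FPKM in 0.2% FBS to 97.9 and 56.6 (adjusted p = 0.0151 in limma). Arhgef10, on the other side of Kbtbd11 at −99.4 kb, was at 6.34 FPKM against 10.1 and 9.96 with exosomes (adjusted p = 0.0478 in limma). That fit called 8.2% of all genes higher and 4.32% lower, and none without the filter on low values. For these 2 calls too, the control has 1 library and the spread of the exosome libraries may be technical. Around Plac8 the differences of 6 genes lay between −0.28 and 0.31, and around Pgf those of 9 genes between −0.47 and 0.25.

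**Figure D5:**
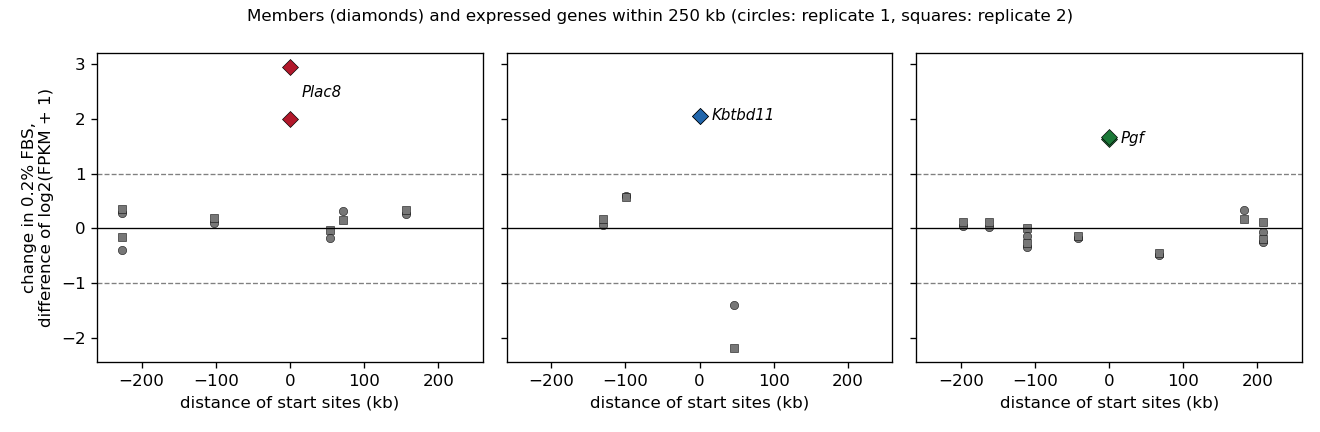
Diamonds mark the members and grey circles and squares the expressed genes within 250 kb, in replicates 1 and 2, by the distance of their start sites in kb along the member's direction and the difference of log2(FPKM + 1) with exosomes in 0.2% FBS. The members lie above the dashed line at 1 and no neighbour does, and Myom2 beside Kbtbd11 lies at −1.41 and −2.19.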

How the data were processed

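Per the labels and the study's methods, the authors trimmed the reads with cutadapt 1.9.1, mapped them to mm10 with TopHat2 2.1.0, computed FPKM with Cufflinks and deposited 1 table of these FPKM values, with a column per library and no read counts. FPKM were used as deposited and compared as differences of log2(FPKM + 1), with the study's threshold of a log2 fold change above 1 or below −1. limma 3.58.1 (R 4.3.3, mean-variance trend, Benjamini-Hochberg adjustment, 1 residual degree of freedom) was fitted over 10731 expressed genes (mean across libraries 1 FPKM or more) and was checked on simulated data. The simulation gave every gene and library the same spread, so it could not check whether single libraries vary like the exosome libraries. The contrast of 2% HS with 10% FBS in the limma fit was added after the data were examined. Depth was estimated as the number of reads at which low values of 2442 genes with a single transcript longer than 1000 bases fell closest to whole numbers (tolerance 0.1 read), for up to 10 reads and fragments of 200 bases. Between 73.2% and 75.4% of these values were then near a whole read. Genes other than the members were named if on a list, most like a member, ranked next to one or within 250 kb. Members, lists and motifs were chosen with earlier results of these data known. The alternatives were other treatments of low values, scalings, filters and leaving out a replicate.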

Additional observations from a re-analysis of the deposited data

Results flagged for a closer look

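Plac8, Kbtbd11 and Pgf had differences of opposite sign with exosomes in the 2 media. Each was higher in both exosome libraries of 0.2% FBS, and the difference in the single exosome library of 2% HS was −0.12 for Plac8, −0.42 for Kbtbd11 and −0.17 for Pgf on the log2 scale, sizes below the 95th percentile of the difference between replicates (0.51). A negative sign in 2% HS was common. With exosomes 58.7% of all expressed entries were lower there, as were 54.2% of the 96 entries past the threshold in 0.2% FBS. The difference between the media was not tested for these genes, because their change in 0.2% FBS chose them.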

How the results depend on the processing

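The 3 genes passed the threshold in 0.2% FBS under every setting run, and none of their differences changed sign. For the difference with exosomes in 0.2% FBS, a pseudocount of 0.1 gave 2.94 for Plac8 and 2.31 for Kbtbd11, values under 1 FPKM raised to 1 gave 3.01 and 2.34, the 75th percentile scaling gave 1.92 for Kbtbd11 and 1.501 for Pgf, and Rpl13a scaling gave 1.83 and 1.41. Leaving out a replicate gave 2.00 to 2.95 for Plac8, and 0.26 to 1.21 for Plac8 against 10% FBS. For 0.2% FBS minus 10% FBS, Plac8 and Kbtbd11 were at −2.15 and −1.76 with a pseudocount of 0.1 and −2.21 and −1.79 with low values raised to 1. Rpl13a scaling gave −1.45, −1.23 and −0.85 for Plac8, Kbtbd11 and Pgf there, −0.27, −0.22 and −0.090 for 2% HS minus 10% FBS, and −0.57 and −0.32 for Kbtbd11 and Pgf with exosomes in 2% HS. The cause of these shifts was not tested beyond the settings themselves. The median of all expressed entries with exosomes in 0.2% FBS was 0.14 as deposited and −0.00076 after the 75th percentile scaling.

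Counts of entries moved more. A pseudocount of 0.1 gave 286 higher and 367 lower entries in 0.2% FBS with exosomes, 196 and 151 in 2% HS with exosomes, 435 and 298 for 2% HS against 10% FBS, and 434 and 396 for 0.2% FBS against 10% FBS. With low values raised to 1 there were 182 higher entries in 0.2% FBS with exosomes, 70 higher and 54 lower in 2% HS, and 120 and 190 lower in 2% HS and 0.2% FBS against 10% FBS. The 75th percentile scaling left 47 higher entries. A single exosome library gave 157 to 319 higher and 186 to 309 lower entries. In the lists, both settings for low values gave 1 higher NFAT gene. Single libraries gave 0 to 1 higher VEGF, C/EBP and NFAT genes, 1 to 2 higher and 0 to 1 lower hypoxia genes and 0 to 2 higher metal response genes. In limma, no filter gave 0 genes in 2% HS (1172 at an unadjusted p under 0.05) and 0 higher and 0 lower list genes in 0.2% FBS (3121 genes at an unadjusted p under 0.05), and the 75th percentile scaling gave 5 higher list genes in place of 10 and turned the split of all calls from 880 higher and 464 lower to 474 and 723. Without the mean-variance trend limma called 7 list genes higher, and the split of all calls was 621 and 412. No paired analysis was possible within a medium, because the title numbers join at most 1 library with and 1 without exosomes in each. The 0.2% FBS library and exosome replicate 1 carry title number 2. Replicate 2 carries number 3, which no library without exosomes has. A paired comparison across the 2 media was not run.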
